A study of Saccharomyces cerevisiae with 6 samples.

Results

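Described here are 10 budding yeast genes that set how much Gcn4 protein is made from GCN4 mRNA, out of 5449 Saccharomyces cerevisiae genes measured. They were taken by name from the platform annotation and comprise the kinase gene GCN2 with its activators GCN1 and GCN20, the eIF2B subunit genes GCN3, GCD7, GCD2, GCD1 and GCD6, and the eIF2 subunit genes SUI2 and GCD11. All 10 were found, each on 1 probe set that names no other gene. The samples were 3 Affymetrix arrays of a GCN4 deletion strain and 3 of FY4, a prototrophic laboratory strain used as the wild-type. All cultures grew exponentially in glucose minimal medium at 30 °C with shaking at 300 rpm. The labels give neither the parent of the deletion strain, nor the ends of its deleted segment, nor whether replicates were separate cultures. Each change is therefore a difference between these strains, and the p-values cover the array-to-array spread alone.

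As background, eIF2 carries the initiator tRNA to the ribosome with bound GTP, and eIF2B exchanges the spent GDP for GTP. In amino acid starvation uncharged tRNAs activate the kinase Gcn2, which phosphorylates the alpha subunit of eIF2 and turns eIF2 into an inhibitor of eIF2B. Ribosomes then pass the short upstream open reading frames of the GCN4 mRNA more often and translate Gcn4, the activator of amino acid biosynthesis genes. Loss of a GCN gene blocks this response, and gcd mutations leave it on without starvation. These proteins act upstream of Gcn4, and the arrays measured their mRNA, not phosphorylation or translation.

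GCN4 (YEL009C) had an intensity of 18.5, 22.3 and 18.1 on the deletion arrays and 23339, 18826 and 20142 on the wild-type arrays. All 3 deletion arrays lay below their background level, so GCN4 was at least 283-fold lower in the deletion strain (adjusted p = 2.94e-07, limma). MIT1 (YEL007W), a transcription factor gene close to GCN4, was also at background in the deletion, with a log2 level of 5.03 ± 0.30 there and 11.82 ± 0.04 in the wild-type (SD, n = 3 each), at least 49.4-fold lower (adjusted p = 3.21e-06). The a-cell receptor gene STE2 stood at 14.26 ± 0.05 in the deletion and 14.05 ± 0.07 in the wild-type, and the alpha-cell receptor gene STE3 at 7.30 ± 0.02 in the deletion and 7.57 ± 0.06 in the wild-type. Of the other mating-type markers checked, the a-cell genes BAR1, MFA1 and STE6 had log2 changes of 0.72, 0.84 and 0.18 (adjusted p of 0.000541, 0.0619 and 0.0978, limma). Of the alpha-cell genes, SAG1 had 0.54 (adjusted p = 0.0036) and MF(ALPHA)1 was above background on 3 deletion arrays and 0 wild-type arrays, whereas STE3 changed by -0.27 (adjusted p = 0.0083). The part of these strain differences in the results below was not tested. The median intensity over all genes was 2281 to 2341 on the deletion arrays and 2112 to 2206 on the wild-type arrays. The gene medians as deposited thus carry an offset between the groups. The background level tended the other way, at log2 6.08 to 6.36 on the deletion arrays and 6.28 to 6.61 on the wild-type arrays. The median log2 change of all genes was 0.09, and 5th and 95th percentiles were -0.31 and 0.79.

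The genes that control GCN4 translation were nearly level between the strains. As deposited, GCN20 and GCD7 were higher in the deletion, by 1.13-fold and 1.18-fold, and the other 8 did not pass the test. By limma 0 of the 10 were called lower, and those with an unadjusted p under 0.05 were the same 2, both higher. Over all genes 2340 of 5449 had an unadjusted p under 0.05. The share called higher was 2 of 10, against 24.6% of all genes (1338 of 5449), and 7.67% of all genes were called lower. The median log2 change of the 10 genes was 0.04, and their changes ran from -0.03 to 0.24. Of all genes, 66.4% changed by no more than 0.24 in either direction, a limit set by the largest change of the 10 themselves. The 95% intervals of the 10 changes lay between -0.25 and 0.36 on the log2 scale, the upper bound being 1.28-fold. All members were at least 4.58 log2 units above the background level of every array. Their median SD was 0.05 within either group, against 0.08 over all genes in either group.

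**Figure D1:**
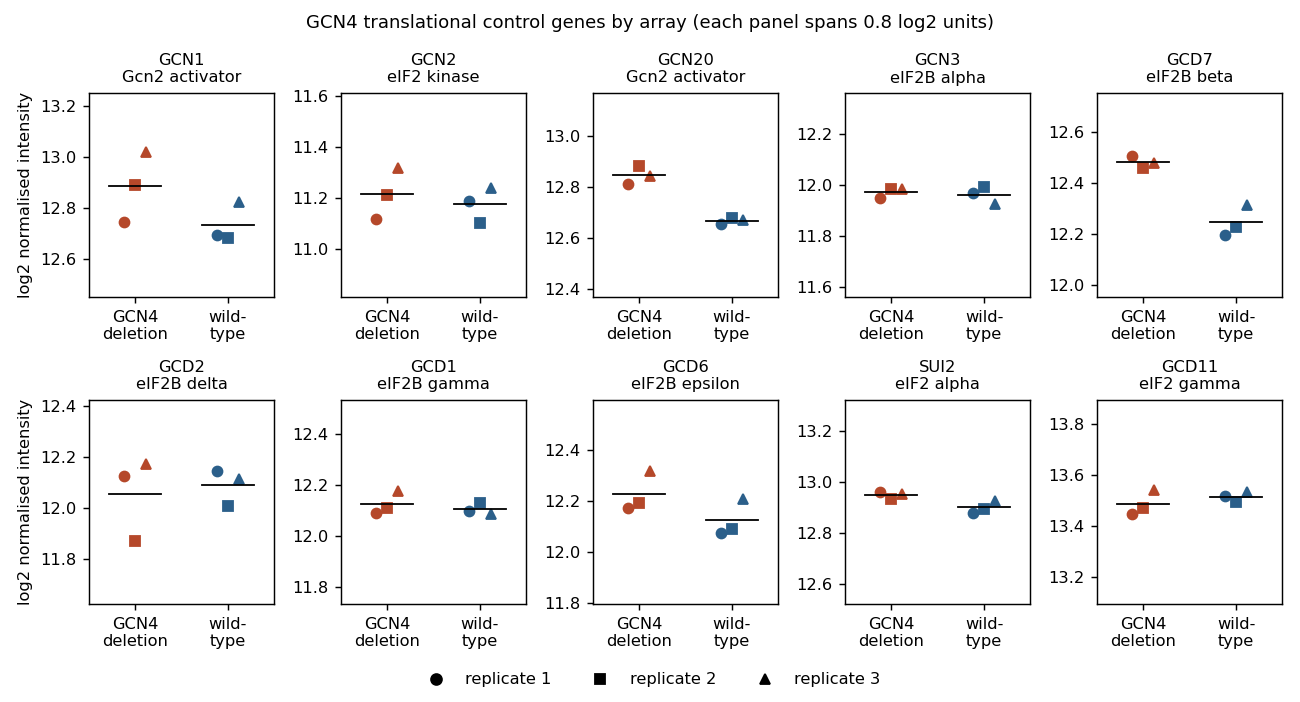
Log2 normalised intensity of each of the 10 genes on the 3 GCN4 deletion arrays (left, red) and the 3 wild-type arrays (right, blue), with horizontal lines at the group means and marker shapes for replicate numbers. The groups are apart in GCN20, GCD7 and, narrowly, SUI2, and overlap in the other 7 panels. Over all genes, the deletion arrays lay wholly above the wild-type arrays in 34.9% and wholly below in 12.6%.

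Gcn1 and Gcn20 form a complex on the ribosome that passes the starvation signal to Gcn2. The log2 level of GCN20 (YFR009W) was 12.81, 12.88 and 12.85 on the deletion arrays and 12.65, 12.68 and 12.67 on the wild-type arrays. All deletion arrays lay above all wild-type arrays, as was so for 34.9% of all genes (12.6% lay wholly below). The log2 change of GCN20 was 0.18 ± 0.04 (SE, adjusted p = 0.0244, limma). This call was lost on leaving out any 1 of the 6 arrays (adjusted p of 0.0537 to 0.0896), with a change of 0.16 to 0.20. Over all genes these smaller fits called 1190 to 1496, against 1756 with all 6 arrays.

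GCN1 (YGL195W), which encodes the large ribosome-bound partner of Gcn20, stood at 12.74, 12.89 and 13.02 in the deletion and 12.69, 12.68 and 12.82 in the wild-type. The groups overlapped, with wild-type replicate 3 above deletion replicate 1. Its log2 change of 0.15 (95% interval -0.05 to 0.35) was close in size to that of GCN20, but with a wider spread. It did not pass (adjusted p = 0.215, limma). In the fit blocked on replicate number, adjusted p was 0.0542 and the 95% interval, 0.03 to 0.28, lay above 0. In GCN1 replicate 3 was the highest array of both groups, and each deletion array exceeded the wild-type array of its number, by 0.05 to 0.21.

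GCN2 (YDR283C), the eIF2 kinase itself, had log2 levels of 11.12, 11.21 and 11.32 in the deletion and 11.19, 11.10 and 11.24 in the wild-type. The groups were interleaved, and the log2 change was 0.04 (95% interval -0.13 to 0.21, adjusted p = 0.712, limma).

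Within eIF2B, the proteins of GCN3, GCD7 and GCD2 are related to each other and form the regulatory part that senses phosphorylated eIF2. GCD7 (YLR291C), the beta subunit, was at 12.51, 12.46 and 12.48 in the deletion and 12.20, 12.23 and 12.31 in the wild-type. The groups did not overlap, with a gap of 0.14 between the lowest deletion array and the highest wild-type array. GCD7 had the largest change of the 10 genes, a log2 change of 0.24 ± 0.05 (SE, adjusted p = 0.0148, limma), above 74.2% of all genes. The call was lost without deletion replicate 1 (adjusted p = 0.0591) or wild-type replicate 1 (adjusted p = 0.0601).

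GCN3 (YKR026C), the alpha subunit, is the only eIF2B subunit that yeast can live without, and is needed for the response to phosphorylated eIF2. Its log2 levels were 11.95, 11.98 and 11.98 in the deletion and 11.97, 11.99 and 11.92 in the wild-type. All 6 arrays lay within 0.07 of each other, and the log2 change was 0.01 (95% interval -0.10 to 0.12, adjusted p = 0.894).

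GCD2 (YGR083C), the delta subunit, was measured at 12.12, 11.87 and 12.17 in the deletion and 12.15, 12.01 and 12.11 in the wild-type. Replicate 2 was the lowest array of both groups, and the SD was 0.16 in the deletion and 0.07 in the wild-type. The log2 change of -0.03 had the widest interval of the 10 genes, from -0.25 to 0.19 (adjusted p = 0.821). Blocking on replicate number narrowed this interval to -0.17 to 0.10.

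The catalytic part of eIF2B is a pair of the gamma subunit, GCD1, and the epsilon subunit, GCD6, which carries the nucleotide exchange activity. GCD1 (YOR260W) had log2 levels of 12.09, 12.11 and 12.18 in the deletion and 12.10, 12.13 and 12.09 in the wild-type. These overlapped, with a log2 change of 0.02 (95% interval -0.09 to 0.13, adjusted p = 0.774).

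GCD6 (YDR211W) was at 12.17, 12.19 and 12.32 in the deletion and 12.07, 12.09 and 12.21 in the wild-type. The groups overlapped through wild-type replicate 3 alone. The log2 change of GCD6, 0.10 (95% interval -0.05 to 0.26), did not pass (adjusted p = 0.281, limma). In the blocked fit adjusted p was 0.0769 and the 95% interval, 0.006 to 0.20, lay above 0. Same-numbered arrays of GCD6 differed by 0.10 to 0.11, in all 3 pairs higher in the deletion.

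SUI2 (YJR007W) encodes the alpha subunit of eIF2, which Gcn2 phosphorylates. Its log2 levels were 12.96, 12.93 and 12.95 in the deletion and 12.88, 12.90 and 12.93 in the wild-type. The deletion arrays were all higher, but by only 0.0056 between the nearest arrays, and the log2 change of 0.05 (95% interval -0.05 to 0.15) did not pass (adjusted p = 0.44).

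GCD11 (YER025W) encodes the gamma subunit of eIF2, which binds GTP and the initiator tRNA. It was at 13.44, 13.47 and 13.54 in the deletion and 13.52, 13.49 and 13.53 in the wild-type. The deletion arrays lay on both sides of the wild-type arrays, with a log2 change of -0.03 (95% interval -0.14 to 0.09, adjusted p = 0.694).

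The call of GCN20 was lost under each other scaling tried, and that of GCD7 under centring and quantile normalization. Median centring of the arrays moved the change of all genes by -0.10 in the median. The change was then 0.07 in GCN20 (adjusted p = 0.345) and 0.13 in GCD7 (adjusted p = 0.174). The 10 changes ran from -0.14 to 0.13 with 3 above 0, and 46.8% of all genes were above 0. With this scaling 0 of the 10 genes were called, against 27.2% of all genes, 14.3% being higher. After quantile normalization GCN20 had an adjusted p of 0.154 and GCD7 of 0.0792, and after cyclic loess GCN20 had 0.0556 while GCD7 was still called (log2 change 0.18). Both calls also ended, with changes still of 0.18 and 0.24, when all probe sets but controls were fitted together (adjusted p of 0.115 for GCN20 and 0.0691 for GCD7), an alternative that alters the variance fit and the number of tests but not the scaling. The share of all called genes that were higher moved likewise, being 76.2% as deposited, 52.5% after centring and 44.2% after quantile normalization.

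**Figure D2:**
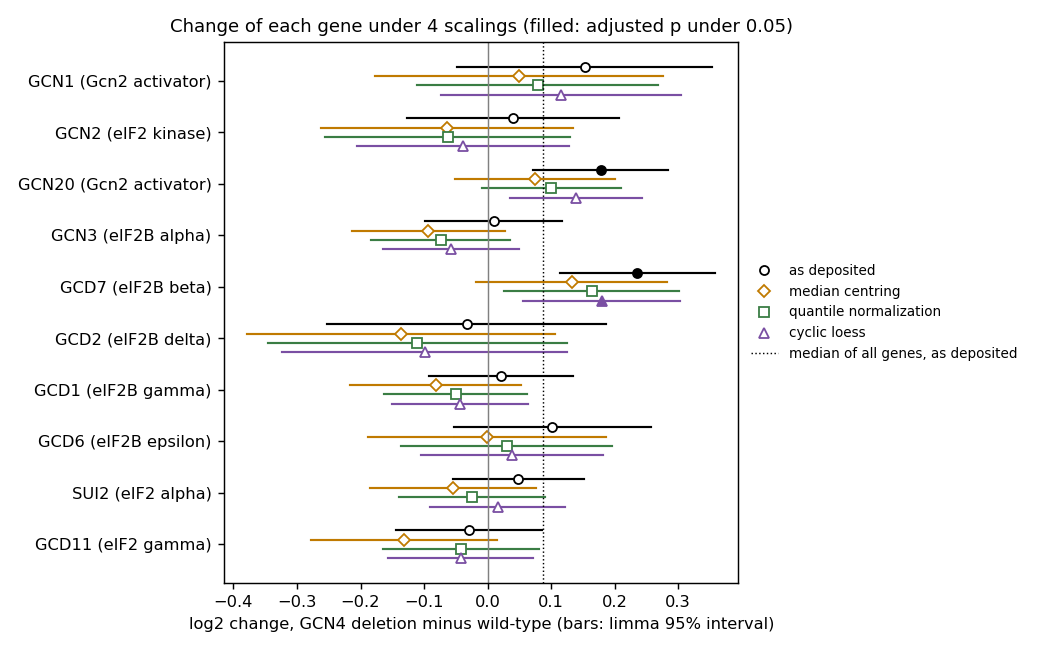
Log2 change (GCN4 deletion minus wild-type) of each of the 10 genes as deposited and after median centring, quantile normalization and cyclic loess, with 95% intervals from limma. Filled symbols, for an adjusted p under 0.05, appear in GCN20 as deposited and in GCD7 as deposited and after cyclic loess. The dotted line marks the median change of all genes as deposited, 0.09.

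A within-array difference between 2 genes does not depend on the level of the whole array, so unequal change was also compared between subunits. Relative to each of the other 4 eIF2B subunits, GCD7 was higher in the deletion, by 0.13 (GCD6) to 0.27 (GCD2) on the log2 scale. Each of these 4 differences had p = 0.1 in a two-sided exact permutation test, the smallest that 3 arrays against 3 can give, and an adjusted p of 0.2 over the 16 pairs compared. The 6 pairs among GCN3, GCD2, GCD1 and GCD6 differed in their change by 0.01 to 0.13 in size, with exact permutation p of 0.3 to 0.7. Among the other members, GCN1 changed by 0.11 more than GCN2 and SUI2 by 0.08 more than GCD11 (exact permutation p = 0.1 for each), GCN20 by 0.14 more than GCN2 (exact permutation p = 0.2) and by 0.03 more than GCN1 (exact permutation p = 0.8). In all, 8 of the 16 pairs reached this smallest exact permutation p, the 4 eIF2B pairs with GCD7 among them. With a floor of 0.1 and pairs picked with values known, the test cannot decide whether GCD7 stands apart.

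The same arrays measured 47 of 50 other listed genes of Gcn2 regulation and translation, of which 2 were called higher and 1 lower. Their median log2 change was 0.03, against 0.09 for all genes, of which 32.2% were called. Of the 47, 3 (TIF2, TEF2 and EFT2) lie on probe sets whose type allows a match to a paralog.

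The partners of eIF2 lay in the range of the genes above. The beta subunit gene SUI3, the eIF5 gene TIF5, which encodes the GTPase activator of eIF2, and CDC123, an assembly factor of eIF2, had log2 changes of 0.08, -0.03 and 0.11, and none passed. Of 8 Gcn2 modulators, 0 passed (limma). Among them GIR2 had an unadjusted p of 0.0443, and all 8 changes were above 0, from 0.01 to 0.28, as were 66.6% of the changes of all genes. After centring 4 of the 8 were above 0, as were 46.8% of the changes of all genes. The largest was TAP42, a TOR pathway regulator of phosphatases, at 10.56, 10.91 and 10.76 in the deletion and 10.27, 10.56 and 10.56 in the wild-type. Its groups overlapped (adjusted p = 0.13), and it passed in the blocked fit (adjusted p = 0.00731).

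GCD10 and GCD14 carry a GCD name but encode the 2 subunits of a tRNA methyltransferase that modifies the initiator tRNA. GCD10 (YNL062C) rose, with log2 levels of 12.43, 12.45 and 12.55 in the deletion and 11.90, 11.81 and 11.91 in the wild-type. The groups were far apart, with a 1.52-fold change and a log2 change of 0.60 ± 0.06 (SE, adjusted p = 0.000581, limma). GCD14 (YJL125C) had 11.66, 11.62 and 11.64 in the deletion and 11.70, 11.51 and 11.66 in the wild-type, a log2 change of 0.01 (95% interval -0.14 to 0.17, adjusted p = 0.888). The change of GCD10 exceeded that of GCD14 by 0.59, with p = 0.1 in the exact permutation test, again the smallest possible, and an adjusted p of 0.2. GCD10 was called under each of the 16 alternatives (adjusted p of 0.000263 to 0.0041).

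Gcn20 belongs to the ABC-F family of ATPases, with the translation elongation factor gene YEF3 and its paralog HEF3. HEF3 (YNL014W) rose, at 9.42, 9.31 and 9.56 in the deletion and 8.62, 8.52 and 8.65 in the wild-type. It was 1.78-fold higher, a log2 change of 0.83 ± 0.08 (SE, adjusted p = 0.000566), and was called under each of the 16 alternatives, with 0.50 after quantile normalization. YEF3, NEW1 and ARB1 had log2 changes of 0.02, 0.01 and -0.02 and did not pass. Whether YEF3 transcripts bind the HEF3 probes was not tested.

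Among factors that recruit the mRNA, DED1 (YOR204W), a DEAD-box helicase gene needed for scanning, fell. Its log2 levels were 12.36, 12.36 and 12.38 in the deletion and 13.23, 13.27 and 12.91 in the wild-type. Wild-type replicate 3 was the lowest of its group and still well above the deletion arrays. DED1 was 1.7-fold lower (log2 change -0.77 ± 0.10, SE, adjusted p = 0.00219), or -0.88 without wild-type replicate 3. The other 8 measured genes of this list, among them those of the cap-binding eIF4E (CDC33) and eIF4G (TIF4631, TIF4632), did not pass.

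The remaining lists had no gene called in the main fit, with values as deposited and no block. The 6 eIF3 subunit genes changed by -0.06 to 0.19, and 2 had an unadjusted p under 0.05, against 2340 of all 5449 genes. The highest was RPG1, encoding the a subunit (adjusted p = 0.11). The 3 genes of scanning and subunit joining changed by 0.08 to 0.18, with SUI1, the eIF1 gene, at the top (adjusted p = 0.388) and 1 unadjusted p under 0.05. That gene was FUN12, which encodes the subunit joining factor eIF5B, at 13.46, 13.49 and 13.58 in the deletion and 13.35, 13.31 and 13.39 in the wild-type. Its groups did not overlap, and its log2 change of 0.16 (adjusted p = 0.0646) passed in the blocked fit (adjusted p = 0.0275). The 5 P stalk genes, whose proteins contact Gcn2 on the ribosome, changed by -0.07 to 0.07, with 0 at an unadjusted p under 0.05. RPP1B varied most, from 13.54 to 14.10 in the deletion and from 13.34 to 14.02 in the wild-type, with replicate 3 lowest in both. The 7 measured elongation and termination genes changed by -0.10 to 0.06. HYP2, which encodes eIF5A, was the lowest, with adjusted p = 0.141, and adjusted p = 0.0295 after centring.

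**Figure D3:**
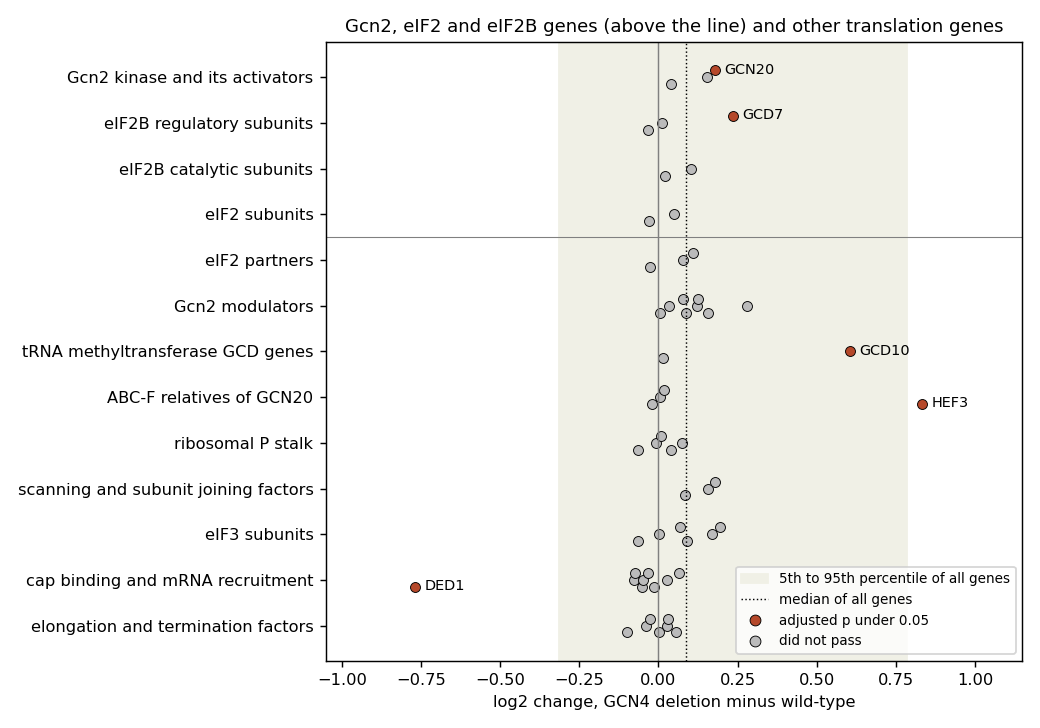
Log2 change (GCN4 deletion minus wild-type, as deposited) of the 10 genes, above the horizontal line, and of the other listed translation genes below it, 1 point per gene and 1 row per list. Red points passed at an adjusted p under 0.05, the shaded band spans the 5th to 95th percentile of all genes (-0.31 to 0.79), and DED1 and HEF3 are the points outside it.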

How the data were processed

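The authors deposited normalised intensity values on a linear scale, 1 column per array. Per the submitters' processing notes R 2.8.0, affy and RMA were used, with no role or order given. Since every intensity was above 0, log2 was taken here with no pseudocount. The design had assumed log2 values.

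Probe sets were named through the platform annotation and the R64 gene table, which served only for names. For the 47 genes with several probe sets, the one with the highest mean over the 6 arrays was used. Background was the 95th percentile of the 1746 other-species probe sets of an array, and "at least" folds were set against it.

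Groups were compared with limma 3.58.1 in R 4.3.3 without covariates, as a two-sided test of deletion minus wild-type. P-values were adjusted by Benjamini-Hochberg over 5449 genes, with a threshold of 0.05. The fit was tested on simulated data with 50 genes changed at each size. It recovered 9 of 50 at a log2 change of 0.25, 34 at 0.5, 42 at 1 and 49 at 2. Of its 140 calls, 6 were false. The simulation had independent noise, no pairing by replicate number and no offset between groups, whereas 1756 genes were called in the data. Its rates therefore do not carry over to the main fit. Matplotlib 3.10.9 drew the figures.

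The 10 genes and the other lists were chosen with earlier results of these data known. The rule for other genes named was GCN4, then in each other list up to 3 called genes with the largest changes, or the gene with the largest change where none was called. MIT1, the mating-type genes and further list genes were picked as checks or partners with their values known. The 16 pairs for the permutation tests were also picked with values known.

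The labels give replicate numbers only. Deviations from group means correlated between same-numbered arrays at r = 0.69, 0.53 and 0.71. Each exceeds the limit of 0.1, so the numbers were read as pairs from the data. The main fit with its intervals and the permutation tests left this pairing out. A block on replicate number was fitted only as an alternative. Between arrays of different number r was -0.64 to 0.23. Promoter and protein sequences were not used here.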

Additional observations from a re-analysis of the deposited data

How the results depend on the processing

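The 16 alternatives were 10 settings of scaling, filter, probe sets and test, and 6 that leave out an array. Of the settings, cyclic loess and the block with centring were chosen after seeing the data. None gave a called change of opposite sign among GCN4, the 10 genes and the other genes named by the rule above. Further genes in the text, such as GCD14, YEF3 and SUI3, were not followed through all alternatives. GCN4, GCD10, HEF3 and DED1 were called in all 16, GCD7 in 10 and GCN20 in 5. The number of the 10 genes called higher, 2 as deposited, was 0 after median centring, after quantile normalization, with all probe sets but controls in the fit and with the replicate block after centring, 1 after cyclic loess, and 0 to 1 on leaving out an array. The number called lower, 0, was 1 (GCD11, log2 change -0.13, adjusted p = 0.0479) with the block after centring. With the replicate number as a block but no centring, no call among the 10 changed, whereas TAP42 and FUN12 were then called. In that fit 2591 of all 5449 genes were called, 1925 of them higher, against 1756 and 1338 as deposited. GCN20 had adjusted p = 0.0162 in that fit and GCD7 0.0118. Of the other listed genes, 2 were lower after centring and 8 with the block after centring, and 4 were higher with array weights or with the block. Over all genes, 1061 were called with all probe sets but controls. Lower calls numbered 703 after centring, 873 after quantile normalization, 690 after cyclic loess, 666 with the block, 1320 with the block after centring, 229 with all probe sets but controls, and 270 to 355 on leaving out an array. Higher calls numbered 778 after centring, 692 after quantile normalization, 868 after cyclic loess and 832 with all probe sets but controls.

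Sign changes among the genes followed were in uncalled values. After centring, with and without the block, GCN2 was at -0.064, GCN3 at -0.093, GCD1 at -0.082, GCD6 at -0.0012, SUI2 at -0.055 and RPP1B at -0.028. After quantile normalization GCN2 was at -0.063, GCN3 at -0.074, GCD1 at -0.050, SUI2 at -0.024 and CDC123 at -0.013. After cyclic loess GCN2 was at -0.039, GCN3 at -0.058 and GCD1 at -0.044. On leaving out an array, GCN2 ran from -0.011 to 0.088, GCN3 from -0.0084 to 0.026, GCD2 from -0.091 to 0.059, GCD1 from -0.0042 to 0.039 and RPP1B from -0.14 to 0.23. Centring moved every change down by 0.10, and quantile normalization moved 5233 of 5449 down, by 0.10 in the median. The cause of other sign changes was not tested. The number of arrays limits the precision.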
